A study of Homo sapiens with 27 samples.

Results

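U937 cells given lipopolysaccharide (LPS) alone were compared with untreated U937 cells, across all named genes of a human oligonucleotide array. The 2 groups were chosen by their labels and by no measured value, and they hold 18 of the 27 arrays of the series, 9 a group. Each group had 3 biological replicates with 3 technical arrays apiece, so n = 3 on each side. The arrays carried 30968 probes, and the 17397 probes with a gene symbol gave 15207 named genes.

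U937 is an established cell line, grown from a human histiocytic lymphoma and monocytic in character. The LPS group received LPS at 4 µg/ml and no other agent, the untreated group received neither LPS nor inhibitor, and the cells of every group were in culture for 48 h. The remaining 9 arrays came from cells given 10 µM PBD150, an inhibitor of glutaminyl cyclase, 2 h ahead of LPS, and they enter here only through the shared estimate of the spread. In the labels these cells are macrophages, yet no differentiating agent is named for the line, which divides in suspension when left alone. The comparison has 1 cell line, 1 dose and 1 time. Nothing in the labels beyond the word biological says that the replicates were separate cultures, so the p-values measure the spread between these samples, which may be technical.

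LPS is the glycolipid of the outer membrane of Gram-negative bacteria. Monocytes bind it through CD14 and the complex of TLR4 with MD-2 (gene LY96), and signal through the adaptor MYD88 to NF-kB and AP-1, which drive cytokine and chemokine genes, and through the adaptor TRIF to interferon regulatory factors, which lead to type I interferon and its target genes. U937 cells are also known to leave the cell cycle and to gain macrophage surface proteins when a differentiating agent is given.

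Values are log2 intensities after quantile normalisation, averaged over the 3 arrays of a replicate, and a difference is the LPS mean minus the untreated mean on that scale, so that 1 unit is a doubling. A value after ± is the standard error (SE) of the limma fit. A gene is read from its brightest probe, and "rose" or "fell" is written only of a gene whose limma adjusted p, over all 30968 probes, was under 0.05. In bulk RNA such as this, a change in the number of cells of a kind and a change in RNA per cell cannot be told apart. Array medians ran from 41.5 to 100.3 intensity units, and untreated replicate 1, at 41.5 to 46.8, lay below untreated replicates 2 and 3, at 69.6 to 74.9. On an array 69.0% to 77.8% of probes were above its noise limit, which was 12.9 to 18.6 units. Untreated replicates lay closer to each other than LPS replicates, with a median SD over probes of 0.206 against 0.364, and the number of arrays limits the precision.

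Of the 15207 genes, 2061 (13.6%) rose and 2343 (15.4%) fell with LPS, 4404 in all (29.0%). Over all probes 3292 rose (10.6%) and 3664 fell (11.8%), with shares of 12.9% and 15.6% among named probes and 7.76% and 6.97% among unnamed ones. The 3 LPS values lay wholly above the 3 untreated values for 3924 genes (25.8%) and wholly below for 3754 (24.7%). At least 4-fold rises were seen for 496 genes (3.26%) and falls of that size for 669 (4.4%). At 16-fold or more the order turned, with 83 genes higher (0.546%) and 21 lower (0.138%), so the far ends of the response held more rises than falls. The median difference was 0.05, which quantile normalisation holds near 0, with a 5th percentile of -1.94 and a 95th percentile of 1.62.

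The split between rises and falls rested on the scaling of the arrays. On the intensities as deposited, with no scaling, 3312 genes rose and 1435 fell and the median of all genes was 0.38, and with each array centred on its median the counts were 1469 and 2373 and the median was -0.10. Under all 3 scalings 1465 genes rose (9.63%) and 1434 fell (9.43%). Unless a sentence says otherwise, each gene named below as having risen or fallen is among these, and its direction was the same under every alternative tried. List counts of 0 to 2 often moved under an alternative. The counts of each list are to be read beside the 13.6% and 15.4% of all genes that rose and fell.

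**Figure D1:**
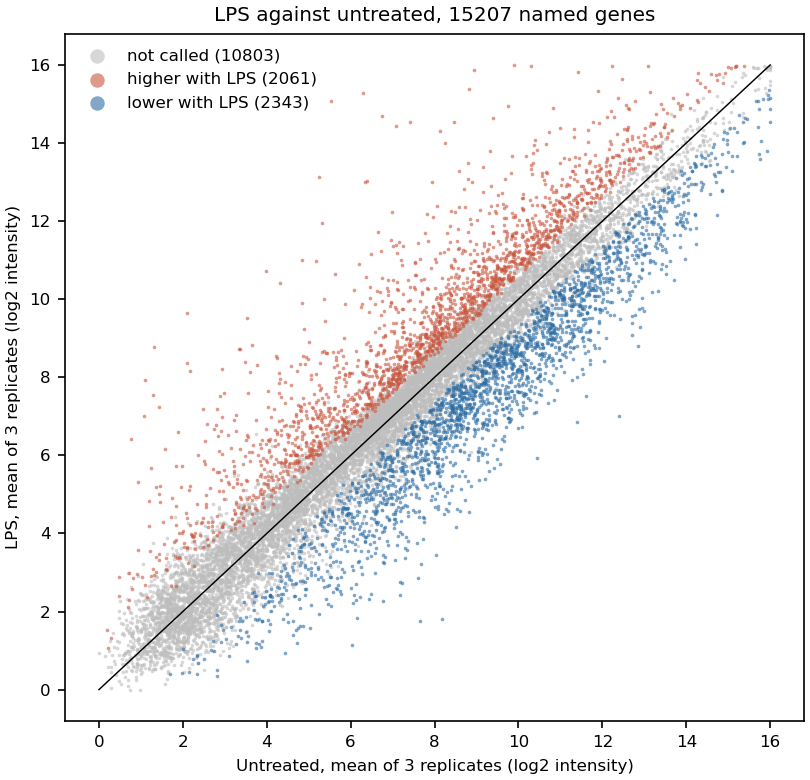
Mean normalised log2 intensity of 15207 genes in untreated cells (x axis) and with LPS (y axis), each the mean of 3 replicates, with 2061 genes that rose in red, 2343 that fell in blue, the rest in grey and the line of equal values in black. The points farthest from the line lie above it, and the points at the right edge are near the top of the scanner's range.

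The largest rise was that of MMP9, a secreted gelatinase that cuts basement membrane collagen, with 4.89, 5.72 and 6.02 in the untreated replicates and 15.05, 15.05 and 15.17 with LPS (9.55 ± 0.31, limma adjusted p = 1.67e-06). SPP1, which encodes osteopontin, a secreted ligand of integrins and CD44, read 6.23, 6.16 and 6.50 untreated and 15.18, 15.49 and 15.15 with LPS (8.98 ± 0.22, adjusted p = 5.46e-07). For both genes every LPS replicate lay far above every untreated replicate. TDO2, a tryptophan-degrading enzyme best known from liver, read 6.78, 6.69 and 6.77 and 14.30, 14.86 and 14.93 (7.95 ± 0.22, adjusted p = 8.3e-07). MMP1, the interstitial collagenase, read 6.97, 7.14 and 7.13 and 14.68, 14.36 and 14.29 (7.37 ± 0.22). These 4 genes encode secreted or metabolic proteins, and each was above noise on all 9 untreated arrays.

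Chemokines, alarmins and surface receptors made up most of the other leading rises. CCL4L2, a near copy of the chemokine gene CCL4, stood at 5.17, 5.24 and 5.31 untreated and 12.08, 13.22 and 14.08 with LPS (7.89 ± 0.45), and CCL3 at 6.54, 6.57 and 5.88 and 12.73, 12.89 and 13.38 (6.67 ± 0.27). Both have near-identical copies in the genome, and the probes may not tell the copies apart. CD14, which hands LPS to the TLR4 complex, read 8.99, 8.96 and 8.88 untreated, and since all 9 LPS arrays were near the scanner's limit it has only a bound, a rise of at least 121-fold. S100A12, a calcium-binding alarmin of monocytes and neutrophils, was 6.39, 6.41 and 6.35 untreated and 12.68, 12.70 and 13.70 with LPS (6.65 ± 0.30). PPBP, the platelet chemokine CXCL7, was 8.86, 8.73 and 8.89 and 14.50, 15.63 and 16.001 (6.55 ± 0.35), with 3 of 9 LPS arrays near that limit. LILRA3, a soluble leukocyte immunoglobulin-like receptor, was 5.05, 5.10 and 5.79 and 11.74, 12.07 and 12.03 (6.64 ± 0.25), and the complement component C3 was 4.31, 4.04 and 3.61 and 10.64, 10.90 and 10.64 (6.74 ± 0.30). In each of these the groups were separated by more than 5 log2 units. The leading rises and falls were picked among genes whose replicates did not overlap, so the lack of overlap was set by that rule.

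INHBA, the activin A subunit, was not above the noise limit on any untreated array and read 8.53, 9.01 and 8.81 with LPS, a rise of at least 26.6-fold, while a second, dimmer INHBA probe differed by 1.12 and was not called (adjusted p = 0.0723). ACVRL1, a type I receptor of the TGF-beta family, was likewise at noise in untreated cells and read 8.29, 7.68 and 7.84 with LPS, a rise of at least 14.8-fold. FNBP4, which encodes a formin-binding protein, read 9.65, 9.84 and 9.48 with LPS against 1.36, 3.41 and 1.52 untreated (7.56 ± 0.49). The middle FNBP4 value came from 1 of 9 untreated arrays, at 223.0 intensity units, with the other 8 between -3.0 and 6.5. S100A8, the partner of S100A9 in calprotectin, read 8.34, 5.65 and 8.27 untreated and 15.995, 11.76 and 15.90 with LPS (7.13 ± 1.15, adjusted p = 0.0027), with 6 of 9 LPS arrays near the scanner's limit. Its replicate 2 was low in both groups, and 1 of its 3 technical arrays was far below the others, at -7.9 against 308.8 and 376.5 units untreated and at 16.2 against 57399.4 and 63269.9 units with LPS. With the median of the technical arrays in place of the mean, an alternative chosen after seeing the data, S100A8 differed by 7.64 (adjusted p = 9.63e-07), and in the fit of all 27 arrays with a random block its adjusted p was 0.058. S100A9 did not share this pattern: it read 9.92, 9.87 and 9.88 untreated and was near the scanner's limit on all 9 LPS arrays, a rise of at least 68.6-fold.

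The largest falls included genes of dividing cells, of mitochondria and of translation. PALM2AKAP2, a locus that encodes an anchor of protein kinase A, read 8.198, 8.19 and 8.17 in untreated replicates and was not above noise on any LPS array, a fall of at least 18.1-fold. HMGB2, a chromatin protein abundant in proliferating cells, read 12.07, 12.47 and 12.65 and 7.97, 6.76 and 6.30 (-5.38 ± 0.60, adjusted p = 0.000434). HSPD1, the mitochondrial chaperonin HSP60, read 11.39, 11.27 and 11.56 and 5.90, 7.40 and 7.30 (-4.54 ± 0.38), and CDC25A, the phosphatase that switches on cyclin-dependent kinases at the start of DNA replication, read 7.87, 8.10 and 8.17 and 2.98, 4.35 and 3.02 (-4.59 ± 0.42). The lowest untreated replicate was above the highest LPS replicate in all of them, as the rule for picking them required. E2F5, a repressor E2F of resting cells, fell from 6.87, 6.78 and 6.67 to 2.47, 1.67 and 2.69 (-4.50 ± 0.30), with 2 of 9 LPS arrays above noise. EIF4H, a cofactor of the helicase that opens messenger RNA for translation, fell from 7.56, 7.85 and 7.64 to 2.48, 3.21 and 3.95 (-4.47 ± 0.34), with 1 of 9. The size of these 2 falls therefore rests on LPS values near background. HASPIN, a mitotic histone H3 kinase, fell from 8.56, 8.52 and 8.45 to 4.35, 4.38 and 3.77 (-4.34 ± 0.21).

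The remaining leading falls, picked by the same rule, had no overlap of replicates either. KIF15 and KIF20B, kinesins of the mitotic spindle and midbody, differed by -4.77 ± 0.64 and -4.74 ± 0.64, and ERCC6L, a spindle-checkpoint helicase, by -4.25 ± 0.53. Of the 9 LPS arrays 2 were above noise for KIF15 and 3 for KIF20B. RCC1, the nucleotide exchange factor that loads RAN on chromatin, read 10.30, 10.47 and 10.54 untreated and 7.43, 6.64 and 3.73 with LPS (-4.50 ± 0.84). MORF4L2, a chromatin subunit, differed by -4.50 ± 0.67, SLC27A2, an acyl-CoA synthetase of very long chain fatty acids, by -4.42 ± 0.85, and PARPBP, an inhibitor of homologous recombination, by -4.32 ± 0.87. Their LPS arrays above noise numbered 2, 3 and 1 of 9, so these sizes too rest on values near background. TIMM9, a carrier of the mitochondrial intermembrane space, read 7.88, 7.56 and 7.54 untreated and 5.11, 0.00 and 0.17 with LPS (-5.90 ± 1.24, adjusted p = 0.00979) and 2 of 9 LPS arrays above noise, so that LPS replicate 1 stood apart from replicates 2 and 3. On that replicate 2 arrays read 83.5 and 108.5 units and the third read 6.9, and a second TIMM9 probe differed by -1.08 and was not called (adjusted p = 0.413).

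**Figure D2:**
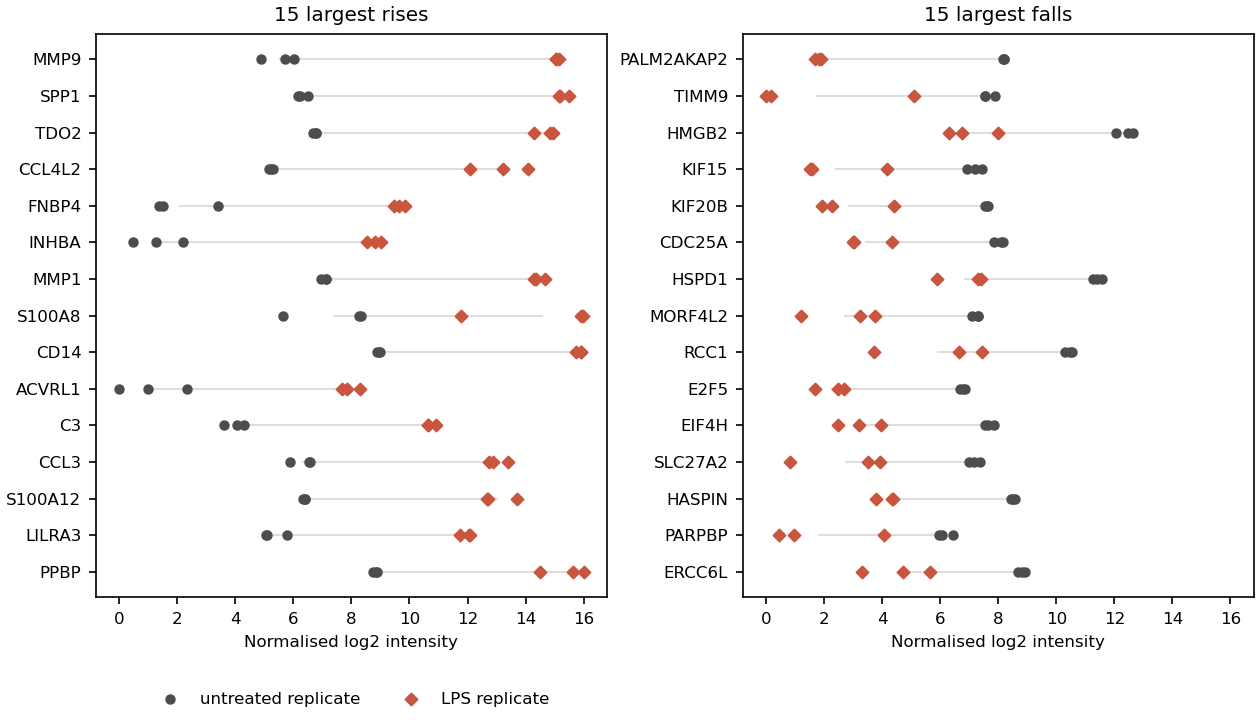
Normalised log2 intensity (x axis) of the 15 largest rises (left) and the 15 largest falls (right) in each of 3 untreated replicates (circles) and 3 LPS replicates (diamonds), with a grey line between the group means. Genes were picked so that circles and diamonds do not overlap, and the widest spread is that of S100A8 among the rises and TIMM9 among the falls.

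The receptors that sense LPS did not move alike. Of 17 measured genes of the LPS receptor complex and its adaptors, 6 rose and 1 fell (10 rose with limma array weights), with a median difference of 0.42 against 0.05 for all genes, and 0.74 against 0.38 on the values as deposited. TLR4 itself read 8.27, 8.37 and 7.93 untreated and 8.17, 8.14 and 8.52 with LPS, overlapping values with a difference of 0.09 ± 0.20 that was not called (adjusted p = 0.806). Its partner LY96, which encodes the LPS-binding protein MD-2, read 10.47, 10.34 and 10.22 and 14.06, 13.52 and 13.64 and rose by 3.40 ± 0.22 (adjusted p = 3.7e-05). MYD88, the adaptor that most Toll-like receptors share, rose from 11.87, 11.66 and 11.71 to 13.01, 13.32 and 13.45 (1.52 ± 0.19). CD180, a TLR4 homologue, rose from 5.53, 5.79 and 6.24 to 7.83, 7.30 and 7.15 (1.57 ± 0.30). So the transcripts of the accessory proteins CD14 and MD-2 and of the adaptor were higher with LPS, while the TLR4 transcript had replicate values that overlapped.

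Other innate receptors rose more often than genes at large: 11 of 17 Toll-like and NOD-family genes were called higher (64.7% against 13.6% of all genes) and 0 of 17 lower, with a median of 0.98. That count was 6 on median-centred values and 7 without untreated replicate 2 or without untreated replicate 3. TLR1, which pairs with TLR2 to bind bacterial lipopeptides, read 5.37, 5.83 and 5.68 untreated and 10.45, 10.70 and 10.76 with LPS (5.01 ± 0.22, adjusted p = 7.58e-06). TLR6, the other partner of TLR2, read 6.11, 5.82 and 5.59 and 9.03, 9.13 and 8.86 (3.17 ± 0.19), and TLR2 itself 6.87, 7.02 and 6.96 and 10.68, 9.54 and 9.52 (2.96 ± 0.47). The 3 lipopeptide receptors therefore rose together, with no overlap of replicates. AIM2, a sensor of cytosolic DNA, rose from 7.88, 7.83 and 7.82 to 9.88, 10.32 and 10.55 (2.41 ± 0.23), and TLR7, a receptor of single-stranded RNA, differed by 1.88 ± 0.26.

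Among NF-kB subunits and their feedback inhibitors 9 of 19 genes rose and 1 fell, with a median of 1.42, and the fall was lost on as-deposited values, on median-centred values and when any 1 replicate was left out. Genes that NF-kB is known to induce against itself were among the rises. TNFAIP3, the ubiquitin-editing enzyme A20, read 9.91, 9.79 and 9.81 untreated and 13.11, 13.26 and 13.33 with LPS (3.40 ± 0.17). NFKBIA, the inhibitor IkB-alpha, read 11.58, 11.76 and 11.61 and 14.21, 13.81 and 14.08 (2.38 ± 0.21), and NFKBIZ, an atypical nuclear IkB, 7.76, 7.71 and 7.34 and 11.48, 11.62 and 11.23 (3.84 ± 0.22). The nuclear IkB protein BCL3 rose by 3.56 ± 0.22 and the subunit RELB by 3.23 ± 0.20, while NFKB1, the p50 precursor, read 9.56, 9.63 and 9.74 and 9.83, 9.42 and 9.41 and was not called (-0.09 ± 0.21, adjusted p = 0.804). TNFAIP3, NFKBIA, NFKBIZ, BCL3 and RELB were thus higher in every LPS replicate. NFKB1 overlapped between groups and was 1 of 9 genes of the list that were not called.

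The promoters of TNFAIP3 and NFKBIA are printed here because, of the called list members with a kappaB site in the printed stretch, they had the smallest p. The other promoters below were chosen in the same way. The 150 bases upstream of the RefSeq start are given in GRCh38.p14, with sites that match the kappaB pattern, on either strand, in capitals. The TNFAIP3 stretch is chr6:137867109-137867258 on the plus strand and the NFKBIA stretch is chr14:35404750-35404899 on the minus strand.
TNFAIP3: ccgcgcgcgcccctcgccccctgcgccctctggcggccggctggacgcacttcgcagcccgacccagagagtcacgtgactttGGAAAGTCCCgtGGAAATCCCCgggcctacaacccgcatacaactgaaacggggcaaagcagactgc
NFKBIA: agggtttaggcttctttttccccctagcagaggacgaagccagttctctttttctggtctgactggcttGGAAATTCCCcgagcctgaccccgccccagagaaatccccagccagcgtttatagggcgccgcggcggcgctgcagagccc
A search of 250 bases before to 50 after the start, both strands, found the kappaB site in 7 of 16 promoters of the list (43.8%) and in 1562 of all 12207 genes with a RefSeq promoter (12.8%). The share was 13.9% among genes that rose and 12.1% among genes that fell. Of the 7 list genes with the site 4 rose, as did 3 of the 9 without it. A match is a match of letters, not a site shown to be bound.

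The immediate-early factors and their phosphatases were mixed at this 48 h time. Of 16 AP-1 and immediate-early genes 6 rose (37.5% against 13.6% of all genes) and 1 fell (6.25% against 15.4%). FOS, an AP-1 subunit, read 9.96, 10.12 and 9.98 untreated and 12.17, 12.23 and 11.68 with LPS (2.01 ± 0.41), its partner JUN 11.86, 11.88 and 11.72 and 13.34, 12.91 and 14.02 (1.60 ± 0.28), and the stress factor ATF3 10.01, 9.82 and 9.86 and 11.27, 11.63 and 11.26 (1.49 ± 0.20). FOSL2, a slower FOS relative, rose by 1.69 ± 0.18. EGR1, a zinc-finger factor of the serum response, went the other way and fell from 11.40, 11.81 and 11.41 to 8.43, 7.78 and 8.06 (-3.45 ± 0.24, adjusted p = 4.77e-05). Of the 12 dual-specificity MAP kinase phosphatases 5 rose (41.7%) and 1 fell (8.33%). The fall was DUSP2, a nuclear phosphatase of ERK and p38, from 10.94, 10.84 and 10.79 to 7.65, 7.14 and 7.45 (-3.44 ± 0.21). DUSP16, which acts on JNK, rose by 1.77 ± 0.17, DUSP1 by 1.52 ± 0.22, DUSP22 by 1.49 ± 0.22 and DUSP8 by 0.98 ± 0.19. The motif TGANTCA, which AP-1 binds, was in 6.6% of the promoters of genes that rose, 2.97% of those of genes that fell and 5.51% of all.

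Inflammatory cytokine genes were higher in 9 of 17 cases and lower in 1, with a median of 1.00, and the fall was lost without untreated replicate 3 and on as-deposited values. IL1B, the pro-form of interleukin 1 beta, read 10.35, 10.31 and 10.23 untreated and was near the scanner's limit on all 9 LPS arrays, a rise of at least 51.1-fold. OSM, which encodes the IL6-family cytokine oncostatin M, read 3.98, 3.39 and 3.21 and 9.99, 9.60 and 9.01 (6.01 ± 0.31, adjusted p = 1.29e-05), with 3 of 9 untreated arrays above noise. IL10, an anti-inflammatory cytokine, read 5.71, 5.001 and 4.59 and 6.16, 7.15 and 7.48 (1.83 ± 0.39), and EBI3, a subunit of IL27 and IL35, 6.996, 6.82 and 6.65 and 8.65, 9.29 and 9.26 (2.24 ± 0.23). IL6 was above noise on 4 of 9 untreated and 6 of 9 LPS arrays, at 3.57, 3.78 and 3.59 untreated and 2.59, 4.32 and 4.76 with LPS, and was not called (0.25 ± 0.49, adjusted p = 0.773), though it was without LPS replicate 1 (0.90, adjusted p = 0.027). TNF, IL18 and CSF2 were not analysed here. Of the 17 genes of the IL-1 system and inflammasome 12 rose and 1 fell, the latter not under all alternatives. The natural antagonist IL1RN rose with its target, from 7.91, 8.04 and 8.26 to 12.82, 12.27 and 12.04 (4.31 ± 0.25), as did the decoy receptor IL1R2, from 5.25, 5.46 and 5.62 to 8.42, 8.62 and 8.84 (3.19 ± 0.23). Transcripts of the ligand, its antagonist and its decoy receptor were all higher in every LPS replicate.

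CC chemokines, which draw monocytes and lymphocytes, rose in 7 of 11 cases (63.6%) and fell in 0 of 11, and had a median of 2.94. CCL1, a ligand of CCR8, read 4.08, 3.15 and 2.84 untreated and 8.65, 8.06 and 9.43 with LPS (5.36 ± 0.63), with 1 of 9 untreated arrays above noise. CCL8 read 8.49, 8.35 and 8.62 and 11.10, 12.34 and 13.29 (3.76 ± 0.48), and CCL2 12.63, 12.83 and 12.88 and 14.88, 15.07 and 15.26 (2.29 ± 0.32). CCL26, an eotaxin, rose by 4.35 ± 0.29, and CCL24, another eotaxin, was at noise on all untreated arrays and rose at least 2.42-fold. CCL5 read 15.17, 15.56 and 15.47 untreated and was near the scanner's limit on all 9 LPS arrays, and it was not called (adjusted p = 0.202), though it was on the values as deposited (adjusted p = 0.0244) and a second CCL5 probe was called higher by 1.47. CCL4, CCL7, CCL13, CCL15, CCL18 and CCL23 were not analysed here. Replicates differed by over 2 log2 units for CCL8 with LPS, and LPS replicate 3 was the highest for CCL3, CCL8 and CCL2.

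CXC chemokines were called higher in 5 of 12 cases and lower in 0. CXCL8, interleukin 8, rose from 12.997, 13.20 and 13.22 to 15.26, 15.27 and 15.36 (2.16 ± 0.20), CXCL16, a membrane-bound chemokine and scavenger receptor, from 7.11, 7.05 and 7.05 to 9.46, 9.67 and 10.09 (2.67 ± 0.21), and CXCL10, an interferon-inducible chemokine, from 5.83, 5.23 and 5.97 to 8.16, 8.31 and 8.46 (2.64 ± 0.24). Of 16 chemokine and formyl peptide receptors 7 rose (43.8% against 13.6% of all genes) and 1 fell (6.25% against 15.4%). CCR1, the receptor of CCL3 and CCL5, read 6.90, 6.73 and 6.79 untreated and 9.55, 9.62 and 9.95 with LPS (2.90 ± 0.28). FPR1, the receptor of bacterial formyl peptides, rose by 3.56 ± 0.37, and CX3CR1, the fractalkine receptor, by 2.15 ± 0.27. CCR7, a lymph node homing receptor, rose from noise on 8 of 9 untreated arrays to 4.59, 4.61 and 4.40 (1.28 ± 0.23).

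Glutaminyl cyclases convert an N-terminal glutamine of CCL2 and related chemokines to pyroglutamate. QPCT, the secreted enzyme, read 3.81, 2.26 and 2.92 untreated and 3.31, 3.03 and 4.32 with LPS, overlapping values above noise on 3 of 9 arrays in each group (0.56 ± 0.48, adjusted p = 0.46). QPCTL, the Golgi enzyme, read 5.22, 6.33 and 6.21 and 4.65, 4.23 and 4.62 and was called lower (-1.42 ± 0.30, adjusted p = 0.0107), but not on the values as deposited (adjusted p = 0.0759).

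Proteases of the extracellular matrix and their inhibitors had the highest share of rises among the 68 lists, 15 of 20 (75.0%), with 0 lower and a median of 1.82. Beside MMP9 and MMP1, ADAMDEC1, a metalloproteinase of macrophages and dendritic cells, rose from 4.22, 3.94 and 4.55 to 8.77, 8.23 and 8.51 (4.26 ± 0.26). The inhibitor TIMP1 rose from 11.31, 11.28 and 11.38 to 13.83, 14.21 and 14.45 (2.84 ± 0.21), and the gelatinase MMP2 from 9.77, 9.84 and 9.97 to 10.86, 10.92 and 11.20 (1.13 ± 0.18). PLAUR, the urokinase receptor, read 10.90, 10.85 and 10.76 and 14.53, 15.11 and 15.03 (4.05 ± 0.20) and its ligand PLAU 9.75, 9.69 and 9.70 and 11.51, 11.69 and 11.66 (1.90 ± 0.29), in a list of 16 urokinase and coagulation genes with 6 rises and 0 falls. F10, coagulation factor X, differed by 1.75 ± 0.25. FN1, fibronectin, rose by 3.71 ± 0.37 and HBEGF, an EGF receptor ligand, by 2.43 ± 0.16, among 15 growth and matrix factors with 8 rises, a count that ran down to 4 without untreated replicate 1, LPS replicate 2 or LPS replicate 3. The rises among proteases thus came with rises of an inhibitor and of a receptor that holds urokinase at the cell surface.

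Interferon-stimulated genes rose in 13 of 28 cases (46.4%) and fell in 0 of 28, with a median of 1.02. ISG15, a ubiquitin-like modifier, read 9.46, 9.21 and 9.32 untreated and 13.50, 13.64 and 14.21 with LPS (4.46 ± 0.27, adjusted p = 2.51e-05). IFIT1, which binds uncapped viral RNA, read 6.40, 6.28 and 6.13 and 9.75, 9.80 and 10.06 (3.60 ± 0.22), and ISG20, an RNA exonuclease, 6.71, 6.76 and 6.67 and 10.43, 11.56 and 11.70 (4.52 ± 0.34). OAS1, which makes the activator of RNase L, rose by 3.19 ± 0.25. MX1, a GTPase that blocks influenza virus, was not called (0.93 ± 0.57, adjusted p = 0.297) and its replicates overlapped, so not every antiviral gene was called. Of the receptors, STAT and IRF genes upstream of them 6 of 23 rose (12 with array weights) and 0 fell. IRF7, the amplifier of interferon production, rose from 7.26, 7.13 and 7.23 to 10.93, 10.88 and 11.23 (3.81 ± 0.24), IRF9, the DNA-binding part of ISGF3, from 7.13, 7.29 and 6.91 to 10.30, 10.36 and 10.11 (3.15 ± 0.25), and IRF1 from 9.86, 9.92 and 10.004 to 11.25, 11.20 and 11.25 (1.31 ± 0.17).

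The ISG15 and IFIT1 promoters show the element by which ISGF3 and IRFs bind. The 150 bases upstream of the start are given in GRCh38.p14, with each match to the interferon-stimulated response element, on either strand, in capitals. ISG15 lies at chr1:1013347-1013496 on the plus strand, where its 2 matches overlap and read as 1 run, and IFIT1 at chr10:89392473-89392622 on the plus strand.
ISG15: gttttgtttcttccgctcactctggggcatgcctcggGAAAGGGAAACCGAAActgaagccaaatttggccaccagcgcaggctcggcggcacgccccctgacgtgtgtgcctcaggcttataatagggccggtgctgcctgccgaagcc
IFIT1: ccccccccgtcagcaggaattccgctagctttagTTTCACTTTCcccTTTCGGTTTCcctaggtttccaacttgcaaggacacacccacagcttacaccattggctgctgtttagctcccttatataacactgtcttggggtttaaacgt
The element was in 17 of 21 promoters of the list (81.0%) against 2.86% of all 12207 promoters. Of the 17 list genes with it 8 rose, and of the 4 without it 1 rose. Over all promoters, of the 349 genes with the element 14.6% rose, beside 13.4% of all genes with a promoter. The shares holding it were 3.12% of genes that rose and 3.02% of genes that fell.

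Surface receptors of myeloid cells rose widely. Of 17 macrophage differentiation markers 8 rose and 0 fell, and their summed normalised intensity was 7782 to 8520 in untreated replicates and 174780 to 190562 with LPS. CD14, near the scanner's limit on all 9 LPS arrays, and TYROBP, near it on 6 of 9, are large parts of that sum. ADGRE1, an adhesion G protein-coupled receptor of macrophages, read 8.12, 8.04 and 8.196 untreated and 14.11, 14.31 and 14.54 with LPS (6.20 ± 0.19). ITGAM (CD11b) read 7.83, 7.76 and 7.89 and 12.17, 12.29 and 12.08 (4.35 ± 0.16) and ITGAX (CD11c) 9.74, 9.76 and 9.77 and 14.78, 15.18 and 14.86 (5.18 ± 0.20). In untreated cells LGMN alone of the 17 was not above noise on any array, and with LPS CD80 alone. Every other marker of the list was above noise on at least 1 array of each group. ADGRE1, ITGAM and ITGAX were each higher by more than 4 log2 units with LPS. CD68, MRC1 and the HLA-DR alpha gene were not analysed here.

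Fc receptors and the adaptors that carry their signal rose in 10 of 14 cases (71.4%) and fell in 0 of 14, with a median of 2.16. TYROBP (DAP12), an adaptor of TREM receptors, rose from 11.36, 11.41 and 11.52 to 15.88, 15.74 and 15.86 (4.40 ± 0.16), and the Fc receptor gamma chain FCER1G from 10.45, 10.70 and 10.81 to 13.69, 12.93 and 13.19 (2.61 ± 0.28). FCGR2A, a receptor of immune complexes, read 8.50, 8.39 and 8.25 and 12.58, 12.13 and 12.09 (3.89 ± 0.25), and TREM1, an amplifier of inflammation, 7.98, 7.96 and 7.87 and 12.59, 13.03 and 13.41 (5.08 ± 0.24). The 10 genes that rose thus held both receptors and adaptors. Lectin, SIGLEC and LILR receptors rose in 11 of 18 cases: the paired receptor PILRA rose from 8.28, 8.24 and 8.21 to 14.07, 13.98 and 13.98 (5.77 ± 0.16), the inhibitory receptor LILRB1 from 7.49, 7.12 and 7.03 to 10.89, 10.79 and 10.93 (3.65 ± 0.21) and the sialic acid receptor SIGLEC5 from 11.72, 11.67 and 11.57 to 14.30, 14.32 and 14.39 (2.69 ± 0.18). Of 16 scavenger and phagocytic receptors 9 rose, among them CD209 (DC-SIGN) by 4.64 ± 0.26, the haemoglobin receptor CD163 by 2.57 ± 0.28, the oxidised LDL receptor OLR1 by 2.33 ± 0.31 and MARCO by 1.59 ± 0.23.

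Adhesion genes rose in 11 of 19 cases (57.9%), with a median of 1.78. ITGB2, the beta chain that pairs with ITGAM and ITGAX, rose from 12.47, 12.61 and 12.73 to 14.82, 14.17 and 14.28 (1.82 ± 0.24), ITGB5, which pairs with the alpha-v chain, from 8.71, 8.79 and 8.57 to 12.70, 12.83 and 12.94 (4.13 ± 0.19), and CD44, a receptor of hyaluronan and osteopontin, from 8.72, 9.17 and 9.12 to 11.23, 10.99 and 11.22 (2.15 ± 0.23). ICAM1, the ligand of the beta-2 integrins, rose by 3.68 ± 0.23. Genes of purinergic and adenosine signalling rose in 8 of 17 cases (5 without untreated replicate 2 or 3 or LPS replicate 2). Among them were P2RX1 and P2RX4, ATP-gated channels, by 2.52 ± 0.24 and 2.29 ± 0.25, P2RY13, an ADP receptor, by 3.03 ± 0.24 and ADORA3, an adenosine receptor, by 2.88 ± 0.28. No adhesion or purinergic gene was called lower on these values, though with array weights 1 adhesion gene and 2 purinergic genes were.

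**Figure D3:**
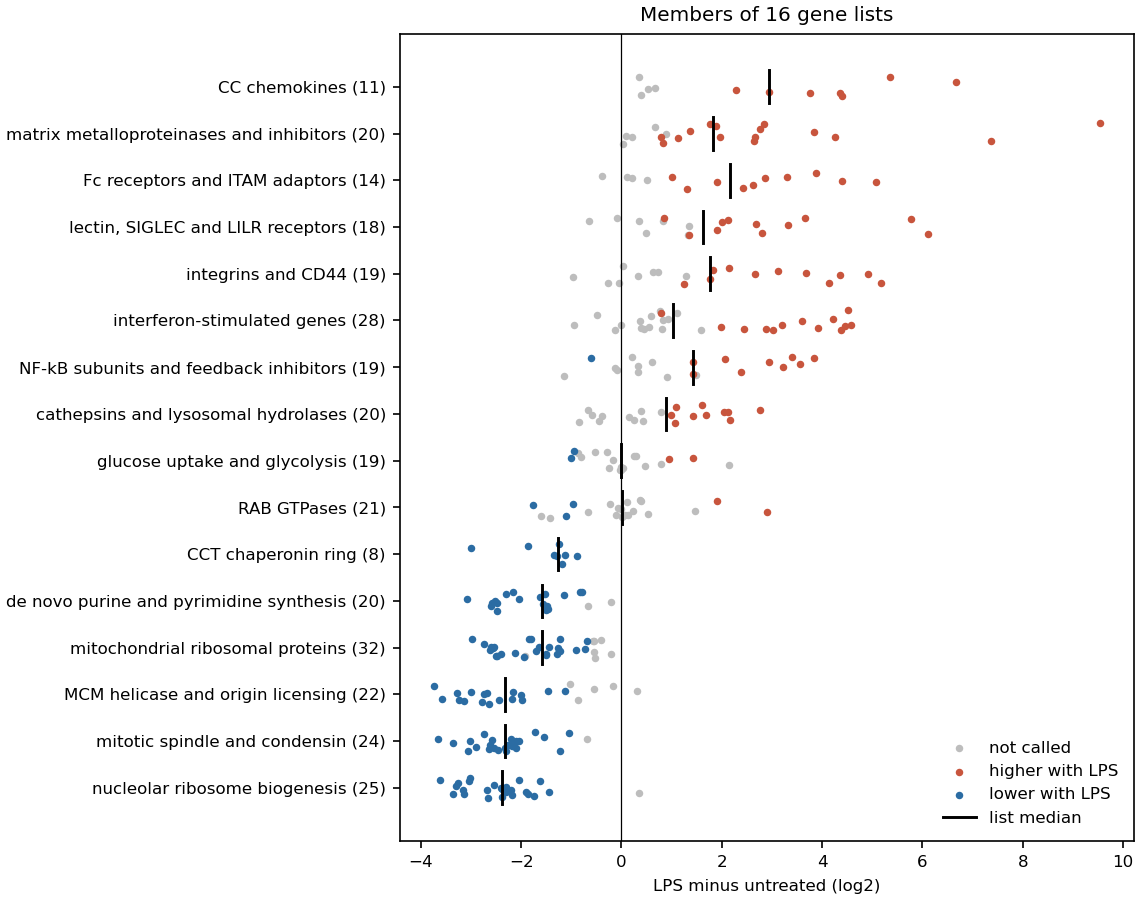
Difference in log2 intensity between LPS and untreated cells (x axis) for each measured member of 16 gene lists (number in brackets), with genes that rose in red, genes that fell in blue, others in grey and a bar at the list median. Medians run from 2.94 for CC chemokines, through 0.01 for RAB GTPases, to -2.39 for nucleolar ribosome biogenesis.

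Of 20 transcription factors of the myeloid lineage 5 rose (10 on the values as deposited) and 2 fell, beside 13.6% and 15.4% of all genes. The 2 falls were factors of immature progenitors: MYB read 12.72, 13.12 and 12.99 untreated and 10.85, 9.69 and 9.55 with LPS (-2.91 ± 0.34, adjusted p = 0.000533) and GFI1 9.50, 9.42 and 9.39 and 6.45, 6.68 and 6.05 (-3.04 ± 0.26). BCL6, a repressor present in macrophages, read 7.93, 8.25 and 8.21 and 11.86, 11.05 and 10.64 (3.05 ± 0.30), CEBPB, a C/EBP factor of activated macrophages, 11.79, 12.02 and 11.94 and 13.33, 13.51 and 13.45 (1.51 ± 0.21), and NFE2 10.60, 10.65 and 10.66 and 12.55, 12.69 and 12.59 (1.97 ± 0.16). SPI1 (PU.1), the master factor of the lineage, was not called (-0.14 ± 0.25, adjusted p = 0.74), while a second SPI1 probe was called lower by -0.95 (adjusted p = 0.0273).

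In a mixed list of azurophil granule and antimicrobial protein genes 3 of 15 rose (20.0%) and 4 fell (26.7%), beside 13.6% and 15.4% of all genes. The list median was -0.24, and 0.14 on the values as deposited. PRTN3, proteinase 3, fell from 11.94, 12.07 and 12.13 to 8.43, 8.38 and 8.43 (-3.63 ± 0.17), and MS4A3, a membrane protein of promyelocytes, from 12.77, 12.85 and 12.91 to 9.05, 8.71 and 8.62 (-4.05 ± 0.27). ELANE, neutrophil elastase, was near the scanner's limit on 8 of 9 untreated arrays and fell, by a measured 0.85 that this limit can make too small. CAMP, the cathelicidin precursor, rose from 3.33, 4.27 and 4.48 to 7.24, 7.16 and 7.35 (3.23 ± 0.31) and BPI, which neutralises LPS, from 6.79, 6.74 and 6.81 to 8.66, 8.56 and 8.67 (1.85 ± 0.16). MPO, myeloperoxidase, was not called (-0.24 ± 0.20, adjusted p = 0.456). The other rise was PRG2. The other fall, the defensin DEFA4, was above noise on 0 of 9 LPS arrays, was at least 1.27-fold, and was not called on the values as deposited (adjusted p = 0.0667), with a replicate block (0.0853) or without any 1 replicate but LPS replicate 3 (0.0772 to 0.122).

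Markers of other cell types were read as a check on the label. For T and NK lymphocytes 5 of 18 markers rose (10 on the values as deposited) and 0 fell, with a summed normalised intensity of 17439 to 19809 untreated and 34438 to 42540 with LPS, and NKG7, which rose by 1.08 ± 0.16, held most of it in both groups. GZMB, a cytotoxic protease, rose from 0.00, 1.78 and 2.52 to 7.71, 7.31 and 6.67 (5.80 ± 0.65, with 1 of 9 untreated arrays above noise) and CD4, which monocytes also carry, from 7.79, 7.64 and 7.67 to 10.14, 9.34 and 9.57 (1.98 ± 0.23). No T or NK marker was at noise on every array of a group. For B lymphocytes 3 of 10 rose (1 without untreated replicate 1 or 3 or LPS replicate 3) and 1 fell, with sums of 1341 to 1466 and 1185 to 1391, and FCRLA, an intracellular Fc receptor-like protein of B cells, rose at least 17.4-fold while CD79A, part of the B cell receptor, fell (-1.40 ± 0.23). Erythroid and megakaryocyte markers had 1 rise and 1 fall of 8 (12.5% each, near the shares of all genes). Their sum went from 1201 to 1354 untreated to 24004 to 66596 with LPS through PPBP. Dendritic cell and osteoclast markers rose in 4 of 13 cases and fell in 0, with sums of 1421 to 1586 and 3498 to 4383. DCSTAMP, a fusion protein of osteoclasts and foreign-body giant cells, rose from 6.31, 6.43 and 6.36 to 10.52, 10.64 and 10.57 (4.21 ± 0.17), CD1C by 2.56 ± 0.34 and CD207 (langerin) at least 1.93-fold, while CTSK and ITGAE were at noise on all arrays of both groups. Fibroblast, endothelial and epithelial markers rose in 4 of 13 cases, with sums of 1472 to 1582 and 3931 to 4778, among them PECAM1, which monocytes also carry, by 2.42 ± 0.29 and EPCAM by 2.36 ± 0.28. Whether any other cell type had a part in the results was not tested.

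Lysosomal and metabolic genes followed the surface receptors in part. Of 20 cathepsins and lysosomal hydrolases 10 rose and 0 fell, with a median of 0.89. CTSB, cathepsin B, rose from 11.84, 11.76 and 11.76 to 14.64, 14.49 and 14.51 (2.76 ± 0.16), CTSS, cathepsin S, from 8.63, 8.36 and 8.21 to 10.96, 10.29 and 10.43 (2.16 ± 0.27) and CTSA, cathepsin A, from 11.66, 11.66 and 11.54 to 13.43, 13.25 and 13.24 (1.69 ± 0.18). Transcripts of these lysosomal enzymes were higher in every LPS replicate.

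Genes of tryptophan breakdown through kynurenine rose. Of 11 genes 6 rose and 0 fell, with a median of 1.03. Beside TDO2, the first enzyme IDO1 rose from 5.41, 5.34 and 5.72 to 6.56, 6.97 and 7.48 (1.51 ± 0.25), KMO, which hydroxylates kynurenine, from 5.76, 5.03 and 4.95 to 7.01, 6.85 and 7.14 (1.76 ± 0.24), KYNU, kynureninase, from 7.56, 7.599 and 7.81 to 10.95, 11.09 and 11.08 (3.38 ± 0.18), and QPRT, which leads to NAD, from 11.44, 11.29 and 11.28 to 13.13, 13.26 and 13.24 (1.87 ± 0.18). Steps from the entry to the end of the route were thus called higher, with no overlap of replicates.

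Lipid genes split. In prostaglandin and leukotriene synthesis 3 of 18 genes rose and 2 fell, near the shares of all genes. PTGS2 (COX-2), which makes the prostaglandin precursor, rose from 2.76, 4.17 and 3.91 to 8.14, 7.79 and 8.48 (4.53 ± 0.56) and ALOX5AP, the helper of 5-lipoxygenase, from 12.35, 12.62 and 12.44 to 15.74, 15.61 and 15.60 (3.18 ± 0.20, with 4 of 9 LPS arrays near the scanner's limit), while PTGER2, a prostaglandin E2 receptor, fell by 2.19. ABCA1, the cholesterol exporter, rose from 4.55, 4.96 and 4.99 to 10.24, 9.71 and 9.78 (5.07 ± 0.24). Its list of 13 efflux and LXR genes had 2 rises (15.4%, near the 13.6% of all genes), and 4 on the values as deposited or with array weights. Of 17 cholesterol synthesis genes 1 rose and 4 fell (7 without LPS replicate 1): INSIG1, a brake on SREBP, fell from 12.78, 12.57 and 12.47 to 10.74, 11.21 and 10.44 (-1.81 ± 0.27) and ACLY, which makes cytosolic acetyl-CoA, from 10.64, 10.56 and 10.56 to 8.198, 9.34 and 8.82 (-1.80 ± 0.29). Among fatty acid genes ACSL4, an acyl-CoA synthetase of arachidonic acid, rose by 2.52 ± 0.27 and its relative ACSL5 fell by 2.06, so 2 enzymes of the same reaction moved in opposite directions. SOD2, the mitochondrial superoxide dismutase, rose from 8.75, 9.04 and 8.78 to 12.49, 11.75 and 11.53 (3.06 ± 0.34).

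Glycolysis and vesicle traffic lists had medians near 0. Of glycolysis genes 10.5% were called each way and of RAB GTPases 9.52% higher and 14.3% lower, beside 13.6% and 15.4% of all genes. Of 19 glucose uptake and glycolysis genes 2 rose and 2 fell, with a median of -0.02 that was 0.18 on the values as deposited, and the rises numbered 6 there and 4 without LPS replicate 1. PFKFB3, which makes the activator of phosphofructokinase, was the larger rise (1.42 ± 0.24), with a second probe at 0.92 that was not called (adjusted p = 0.0654). Of 21 RAB GTPases 2 rose and 3 fell, with a median of 0.01 that was 0.38 on the values as deposited and -0.10 on median-centred values, and RAB13 (2.90 ± 0.28) and RAB31 (1.91 ± 0.23) rose. Over all genes, 292 (1.92%) had a 95% interval of the difference within 0.5 of 0 on normalised values. HADHA, a mitochondrial enzyme of fatty acid oxidation, is a bright example not near the scanner's limit. It read 13.93, 13.86 and 13.91 untreated and 14.001, 13.96 and 13.88 with LPS, with an interval from -0.31 to 0.40. On the values as deposited HADHA differed by 0.52 (limma adjusted p = 0.0907), so its steadiness too rested on the scaling.

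Stress and survival genes were read next. Of 16 BCL2-family and inhibitor of apoptosis genes 3 rose (6 without LPS replicate 1) and 3 fell, 18.8% each way and near the 13.6% and 15.4% of all genes: the pro-apoptotic BMF rose from 8.82, 8.78 and 8.77 to 12.79, 13.17 and 13.27 (4.29 ± 0.19), BCL2, which protects mitochondria, fell from 9.53, 9.38 and 9.41 to 7.41, 6.69 and 6.46 (-2.59 ± 0.25) and so did BIRC5 (survivin), which also serves mitosis (-2.39 ± 0.23). Of 22 unfolded protein and integrated stress genes 8 rose (4 on median-centred values) and 5 fell (0 on the values as deposited). The chaperone HSPA5 rose by 1.11 ± 0.16 and CHAC1, a glutathione-degrading enzyme, by 1.19 ± 0.18.

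MYC, the growth factor-driven transcription factor, fell from 6.80, 7.66 and 7.59 to 4.24, 3.58 and 2.94 (-3.76 ± 0.45, adjusted p = 0.000591), with only 3 of 9 LPS arrays above noise. MXI1, which competes with MYC for MAX, rose from 10.90, 10.70 and 10.72 to 12.20, 12.21 and 11.87 (1.32 ± 0.18). Of the 14 genes of the network 4 rose (1 without untreated replicate 2 or LPS replicate 2) and 2 fell (14.3%, near the 15.4% of all genes), the second fall being lost on the values as deposited. MYC and MXI1 thus differed in direction, while the rest of the network held both rises and a fall.

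Most genes of cell division that were listed fell. Of 18 cyclins, cyclin-dependent kinases and CDC25 phosphatases 13 fell (72.2% against 15.4% of all genes) and 1 rose, with a median of -1.64. CCNE2, a cyclin of the entry to DNA replication, read 8.96, 8.82 and 8.69 untreated and 5.84, 5.94 and 6.26 with LPS (-2.81 ± 0.26), CCNA2, cyclin A2, 11.38, 11.59 and 11.59 and 8.74, 8.14 and 7.73 (-3.32 ± 0.28), and CCNB1, a cyclin of mitosis, 12.24, 12.19 and 12.30 and 10.37, 10.61 and 10.57 (-1.73 ± 0.21). CDK4, the kinase of the first growth phase, read 15.77, 15.75 and 15.71 and 13.39, 13.89 and 13.89 (-2.02 ± 0.23). Cyclins of entry, of replication and of mitosis were all lower in every LPS replicate. Among CDK inhibitors, RB family and E2F genes 4 of 20 rose and 7 fell (11 with array weights): E2F8 fell by 2.61 and TFDP1, the partner of E2Fs, fell too (-2.15 ± 0.22), while E2F1 was not called (-0.20 ± 0.29, adjusted p = 0.683). CDKN1A, the cyclin-dependent kinase inhibitor p21, read 6.27, 6.79 and 6.90 untreated and 11.07, 12.22 and 11.86 with LPS (5.06 ± 0.32, adjusted p = 3.46e-05).

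DNA replication genes were mostly lower with LPS. Of 22 genes of the MCM helicase and of origin licensing 17 fell (77.3%) and 0 rose, with a median of -2.31. MCM4, a helicase subunit, read 10.89, 10.94 and 10.91 untreated and 7.92, 7.65 and 7.46 with LPS (-3.24 ± 0.18, adjusted p = 2.15e-05), and GINS2, a subunit of the complex that joins it, 11.69, 11.61 and 11.69 and 9.07, 8.50 and 8.43 (-2.99 ± 0.22). MCM2 differed by -3.14 ± 0.45, MCM7 by -2.64 ± 0.25, GINS1 by -3.74 ± 0.34 and CDC45 by -2.01 ± 0.17. Of 23 polymerase and fork genes 17 fell (11 on the values as deposited) and 0 rose. PCNA, the sliding clamp, was near the scanner's limit on all 9 untreated arrays and fell at least 2.72-fold, and POLA1, the catalytic subunit of the priming polymerase, read 7.25, 7.15 and 7.10 and 5.25, 4.43 and 4.73 (-2.36 ± 0.32). Of 21 repair and checkpoint genes 16 fell and 0 rose, among them EXO1, an exonuclease of mismatch repair, from 11.81, 11.72 and 11.84 to 8.88, 8.93 and 8.68 (-2.96 ± 0.17), UNG, which removes uracil from DNA (-2.90 ± 0.27), and BRCA1 (-1.995 ± 0.20).

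Mitotic genes had 23 of 24 members lower (95.8%) and 0 higher, with a median of -2.32, and 19 fell under all 3 scalings. PLK1, a kinase of mitotic entry, read 10.06, 10.08 and 10.16 untreated and 7.29, 7.49 and 7.32 with LPS (-2.73 ± 0.16, adjusted p = 2.33e-05). MKI67, the proliferation marker Ki-67, read 11.04, 10.89 and 10.998 and 8.46, 8.43 and 8.41 (-2.54 ± 0.18), AURKB, the kinase of the chromosomal passenger complex, 10.46, 10.37 and 10.20 and 8.50, 8.06 and 8.15 (-2.10 ± 0.19), and SPC25, a kinetochore protein, 12.71, 12.67 and 12.54 and 9.97, 10.11 and 9.92 (-2.64 ± 0.18). NCAPH, a condensin subunit, fell by 3.35. The untreated replicates of these genes lay within 0.3 log2 units of each other and more than 1.6 above the nearest LPS replicate. Of 18 kinesins 12 fell and 2 rose. The falls included motors of the spindle, such as KIF23 (-2.94 ± 0.26) and KIF20A (-1.74 ± 0.19), and KIF13B, a motor of vesicle transport, rose from 8.18, 8.05 and 8.18 to 9.86, 10.11 and 10.14 (1.90 ± 0.18). HMG, DNA methylation and Polycomb genes fell in 11 of 18 cases (6 on the values as deposited, 7 without untreated replicate 2 or 3). They rose in 1 (0 on median-centred values). Beside HMGB2, UHRF1, which guides maintenance methylation, fell from 11.22, 11.61 and 11.85 to 9.19, 8.75 and 8.46 (-2.76 ± 0.26), and so did the methyltransferase DNMT1 (-2.14 ± 0.37).

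Promoters of replication and of mitotic genes are known to carry different elements, and 2 of each are printed to show them. The E2F site was searched as TTTGGCGC or TTTCCCGC and the cell cycle homology region, or CHR, as TTTGAA, on both strands, with matches in capitals in the 150 bases upstream of the start (GRCh38.p14). GINS2 lies at chr16:85688955-85689104 on the minus strand and CDT1, a licensing factor, at chr16:88803639-88803788 on the plus strand. PLK1 lies at chr16:23678739-23678888 on the plus strand and MKI67 at chr10:128126424-128126573 on the minus strand.
GINS2, E2F site: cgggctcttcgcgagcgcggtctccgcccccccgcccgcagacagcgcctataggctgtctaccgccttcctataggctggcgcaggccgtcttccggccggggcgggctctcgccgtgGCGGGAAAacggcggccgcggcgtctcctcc
CDT1, E2F site: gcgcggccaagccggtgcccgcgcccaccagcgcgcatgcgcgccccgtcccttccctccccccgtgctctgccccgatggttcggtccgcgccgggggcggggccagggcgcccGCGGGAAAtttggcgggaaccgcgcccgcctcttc
PLK1, CHR: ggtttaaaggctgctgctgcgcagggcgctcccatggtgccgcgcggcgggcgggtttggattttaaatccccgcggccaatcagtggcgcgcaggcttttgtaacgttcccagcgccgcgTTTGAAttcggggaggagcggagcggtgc
MKI67, CHR: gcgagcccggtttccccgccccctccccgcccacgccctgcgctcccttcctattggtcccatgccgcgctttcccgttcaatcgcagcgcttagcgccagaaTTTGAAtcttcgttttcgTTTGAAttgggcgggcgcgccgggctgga
The E2F site was in 10 of 19 promoters of the MCM and licensing list (52.6%) and 3.25% of all, and the CHR in 15 of 19 promoters of the mitotic list (78.9%) and 11.4% of all. The CHR was in 0 of the 19 MCM and licensing promoters and the E2F site in 1 of the 19 mitotic ones. All 15 mitotic genes with the CHR fell, and so did the 4 without it. In the MCM list 7 of 10 genes with the E2F site fell and 8 of 9 without it. Over all promoters the E2F site was in 6.05% of genes that fell and 2.32% of genes that rose, and 29.7% of the 397 genes that hold it fell, beside 1952 of all 12207 genes with a promoter.

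Nucleolar genes of ribosome production were lower with LPS. Of 25 nucleolar genes of ribosome biogenesis 24 fell (96.0%) and 0 rose, all 24 under the 3 scalings, with a median of -2.39. NOLC1, a nucleolar scaffold, read 12.65, 12.74 and 12.71 untreated and 9.55, 9.61 and 9.54 with LPS (-3.14 ± 0.15, adjusted p = 1.02e-05). DDX21, a nucleolar RNA helicase, read 12.90, 12.91 and 12.88 and 9.01, 9.28 and 9.55 (-3.61 ± 0.20), NCL, nucleolin, 13.47, 13.51 and 13.57 and 10.74, 10.95 and 10.83 (-2.67 ± 0.17), and LYAR, a nucleolar growth regulator, 12.85, 12.999 and 12.97 and 9.62, 9.81 and 9.92 (-3.15 ± 0.17). No nucleolar gene was called higher on these values, though 1 was on the values as deposited. The ribosomal proteins themselves were measured in 9 cases and 6 of them fell (3 on the values as deposited). RPL4 read 15.99, 15.98 and 15.99 and 15.08, 14.997 and 14.52 (-1.12 ± 0.21), with 6 of 9 untreated arrays near the scanner's limit. A second, bright RPL4 probe was called lower by -1.43 (adjusted p = 0.00213), and the other RPL4 probe, near background in both groups, was not called (-0.59, adjusted p = 0.512).

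The E-box CACGTG, to which MYC and MAX bind, was in 9 of 22 nucleolar promoters (40.9%) and 8.98% of all promoters. UTP4, a processome subunit that fell by 3.31, is printed because it had the smallest p of the called list members with the E-box in the printed stretch, at chr16:69132499-69132648 on the plus strand (GRCh38.p14, 150 bases upstream of the start, E-box in capitals).
UTP4: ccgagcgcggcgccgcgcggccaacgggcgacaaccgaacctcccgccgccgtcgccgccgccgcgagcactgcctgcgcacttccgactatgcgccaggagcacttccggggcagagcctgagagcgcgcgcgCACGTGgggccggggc
Of the 9 nucleolar genes with the E-box 8 fell, and all 13 without it fell. Genes that fell held the E-box in 12.8% of cases and genes that rose in 8.06%.

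Genes of the mitochondrial ribosome were mostly lower with LPS too. Of 32 mitochondrial ribosomal proteins 25 fell (78.1%) and 0 rose, with a median of -1.58. MRPS9 read 11.57, 11.51 and 11.52 untreated and 9.25, 8.86 and 8.72 with LPS (-2.59 ± 0.21), MRPS28 9.13, 9.18 and 9.09 and 7.53, 7.31 and 7.44 (-1.71 ± 0.17), and MRPL24 12.05, 11.99 and 11.80 and 10.28, 10.16 and 10.43 (-1.65 ± 0.18). Of 22 respiratory chain genes 9 fell (4 when any 1 untreated replicate was left out, and 4 on as-deposited values) with 0 higher and a median of -0.61 that was -0.20 on the values as deposited. NDUFA9, a complex I subunit, differed by -1.33 ± 0.19 and SDHB, a complex II subunit, by -1.34 ± 0.22. The difference in share between these 2 lists was not tested.

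Genes that charge transfer RNA and start translation were also lower. Of 13 aminoacyl-tRNA synthetases 9 fell and 0 rose, with a median of -1.50: IARS1 fell from 15.82, 15.75 and 15.69 to 14.22, 13.41 and 13.14 (-2.16 ± 0.28), LARS1 from 12.52, 12.37 and 12.19 to 10.74, 10.05 and 9.78 (-2.18 ± 0.28) and KARS1 from 12.33, 12.42 and 12.59 to 10.89, 10.95 and 11.02 (-1.50 ± 0.16). Of 22 initiation factors 11 fell (18 in the fit of all arrays with a random block) and 1 rose. The rise was EIF4E, the cap-binding protein, from 6.05, 6.54 and 6.52 to 8.11, 8.49 and 8.62 (2.03 ± 0.26), while EIF2S1, the alpha subunit of eIF2, fell by 2.65 and EIF3B fell too (-2.21 ± 0.16). The cap-binding factor thus moved against the 11 members that fell.

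Genes of nucleotide synthesis fell in 18 of 20 cases (90.0%), with 0 higher and a median of -1.59. CTPS1, which makes CTP, read 12.45, 12.58 and 12.65 untreated and 10.24, 9.89 and 9.75 with LPS (-2.60 ± 0.20), DHODH, the mitochondrial step of pyrimidine synthesis, 11.70, 11.68 and 11.76 and 9.51, 8.96 and 9.09 (-2.53 ± 0.19), and IMPDH2, the entry to guanine nucleotides, 14.78, 14.73 and 14.69 and 12.57, 12 and 11.92 (-2.57 ± 0.23). CAD, the enzyme that opens the pyrimidine route, differed by -2.48 ± 0.28. Of 18 amino acid transporters 6 fell (33.3% against 15.4% of all genes). The 2 that rose (1 on median-centred values) were 11.1%, near the 13.6% of all genes. SLC7A7, an exchanger of cationic and neutral amino acids, rose from 9.54, 9.33 and 9.30 to 14.45, 14.82 and 14.69 (5.26 ± 0.18, adjusted p = 2.26e-06), while SLC7A1, an importer of arginine, fell from 9.42, 9.34 and 9.14 to 7.13, 6.95 and 6.56 (-2.42 ± 0.22) and so did SLC1A5, a glutamine importer (-1.90 ± 0.27).

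Chaperones that fold new proteins were lower. All 8 subunits of the CCT ring, which folds actin and tubulin, were called lower, with a median of -1.26, but only 5 of 8 when untreated replicate 2, untreated replicate 3 or LPS replicate 2 was left out, and 3 of 8 on as-deposited intensities. CCT2 read 13.21, 13.15 and 13.16 untreated and 10.43, 9.95 and 10.17 with LPS (-2.99 ± 0.20), CCT5 13.75, 13.92 and 13.90 and 12.02, 12.05 and 11.92 (-1.86 ± 0.21), and TCP1 11.79, 11.85 and 11.84 and 10.32, 10.50 and 10.82 (-1.28 ± 0.25). These 3 were the members that held under the 3 scalings. Of 15 heat shock chaperones 8 fell and 1 rose (0 on median-centred values): beside HSPD1, its co-chaperonin HSPE1 fell from 11.78, 11.73 and 11.64 to 9.66, 8.34 and 8.84 (-2.77 ± 0.33), and so did TRAP1, a mitochondrial HSP90 (-2.12 ± 0.23), and HSPA8, the constitutive HSP70 (-2.80 ± 0.33).

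Genes of RNA processing and nuclear transport followed. Of 29 spliceosome and hnRNP genes 20 fell (69.0%), 14 of them under all 3 scalings, and 0 rose, with a median of -1.43. SRSF1, a splicing factor, read 13.47, 13.42 and 13.29 untreated and 10.93, 10.76 and 10.65 with LPS (-2.62 ± 0.18), HNRNPA1, an RNA-binding protein, 11.67, 11.82 and 11.63 and 9.09, 9.43 and 9.09 (-2.51 ± 0.19), and SF3A3 7.86, 7.76 and 7.53 and 3.54, 3.48 and 4.55 (-3.86 ± 0.31), with 4 of 9 LPS arrays above noise. Of 26 nuclear pore and transport genes 21 fell (80.8%), 14 of them under all 3 scalings, and 0 rose. NUP205, a scaffold of the pore, fell from 12.45, 12.45 and 12.40 to 10.61, 10.50 and 10.36 (-1.95 ± 0.16). IPO7, an importin (-2.32 ± 0.24), and RANBP1, a regulator of RAN (-2.55 ± 0.26), fell too. The proteasome list is one whose falls did not survive the scalings: 11 of 23 genes were called lower on normalised values, 0 on the values as deposited and 0 under all 3 scalings.

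**Figure D4:**
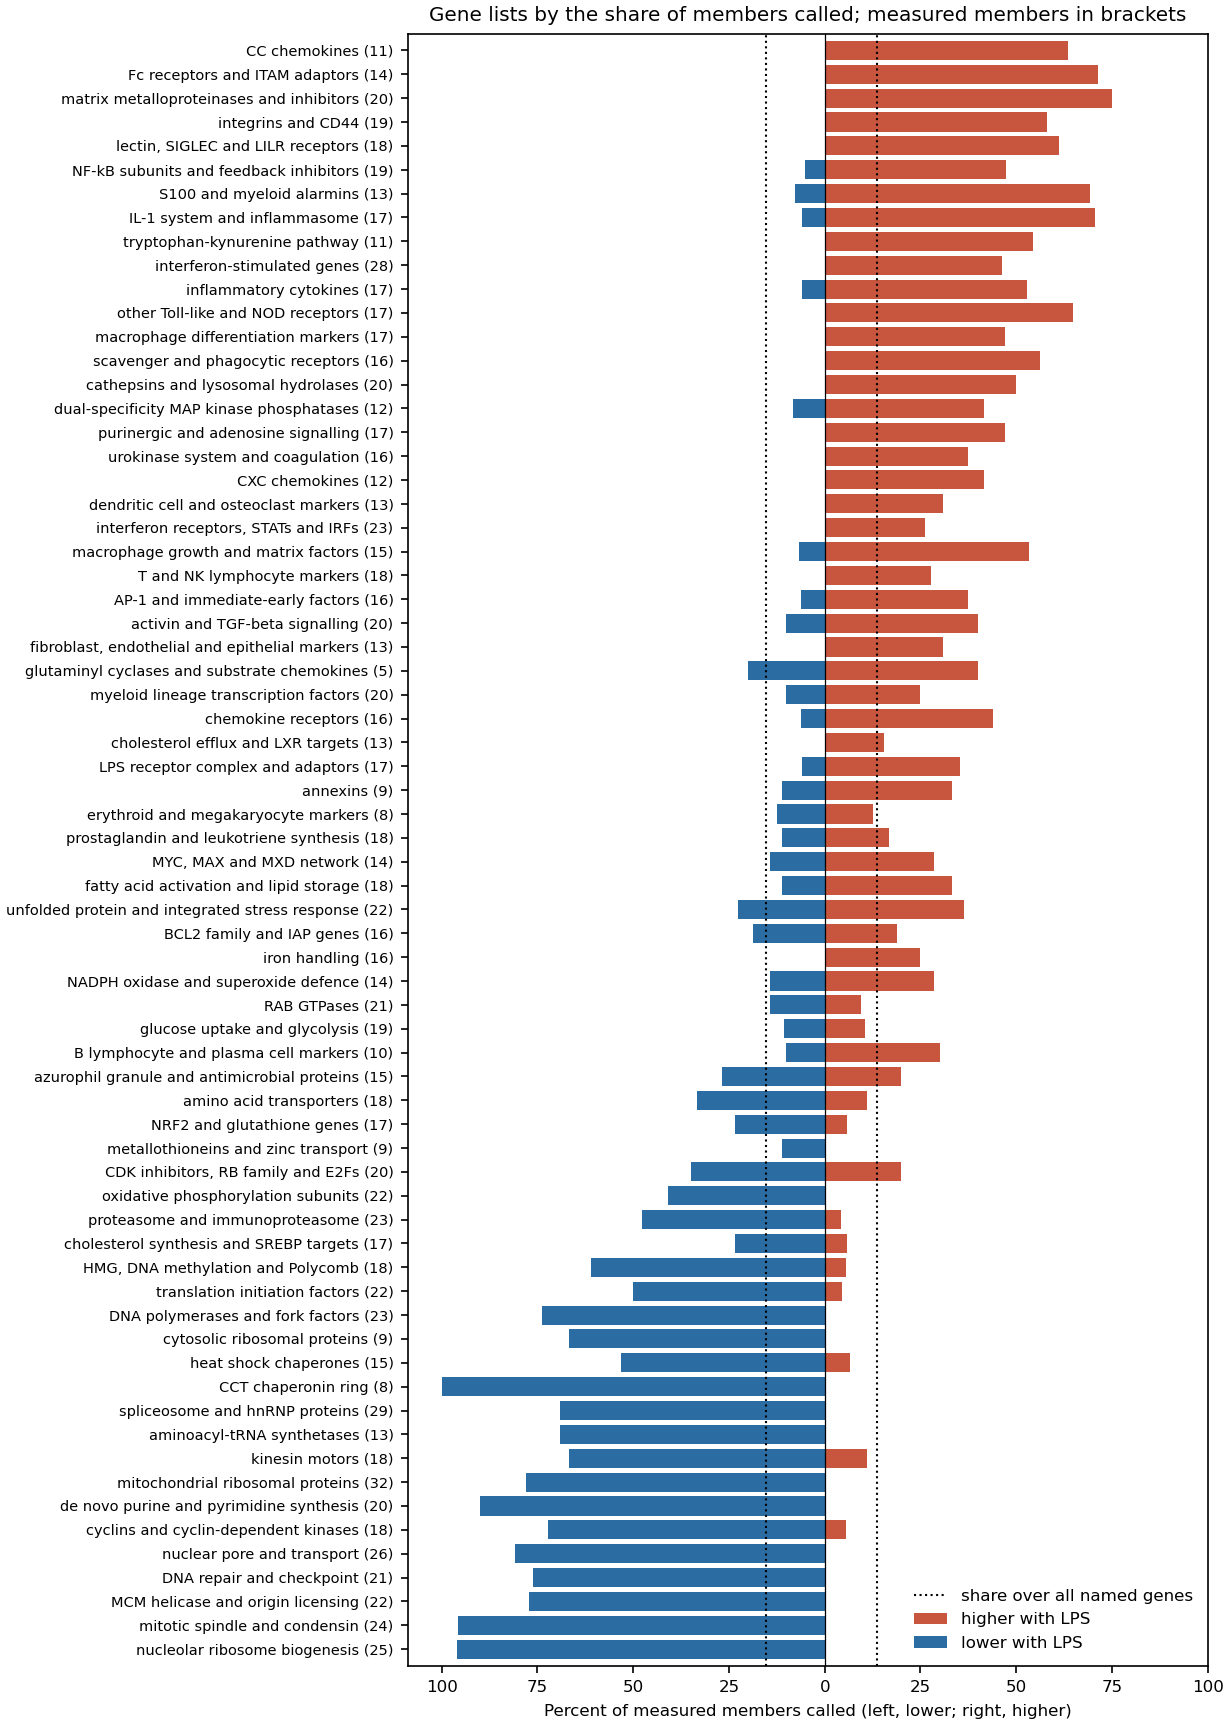
Percent of the measured members of each of 68 gene lists (number in brackets) that were called lower (blue, to the left) or higher (red, to the right), ordered by the list's median difference, with dotted lines at the 15.4% and 13.6% of all named genes. Lists of secreted and surface proteins reach up to 75.0% higher, and the nucleolar list and the CCT ring reach 96.0% and all 8 members lower.

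The 3 LPS replicates moved the same way. Over the 1465 genes higher under all scalings the median difference from the untreated mean was 1.58, 1.61 and 1.62 in LPS replicates 1, 2 and 3, and over the 1434 lower genes it was -1.70, -1.93 and -2.03. These genes were chosen with the same replicates, so the sizes are a description. LPS replicate 1 had the weakest shift in several falling lists, for example -1.72 against -2.49 and -2.70 for the mitotic list and -1.84 against -2.38 and -2.55 for the MCM list. In CC chemokines it was 2.13 against 2.94 and 3.74. In the nucleolar list the 3 replicates lay closer, at -2.25, -2.47 and -2.39. LPS replicate 1 also had the widest range of array medians, 68.3 to 100.3 units, and the lowest weight, 0.311, when limma estimated array weights over the 9 replicates. Its part in these shifts was not tested.

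**Figure D5:**
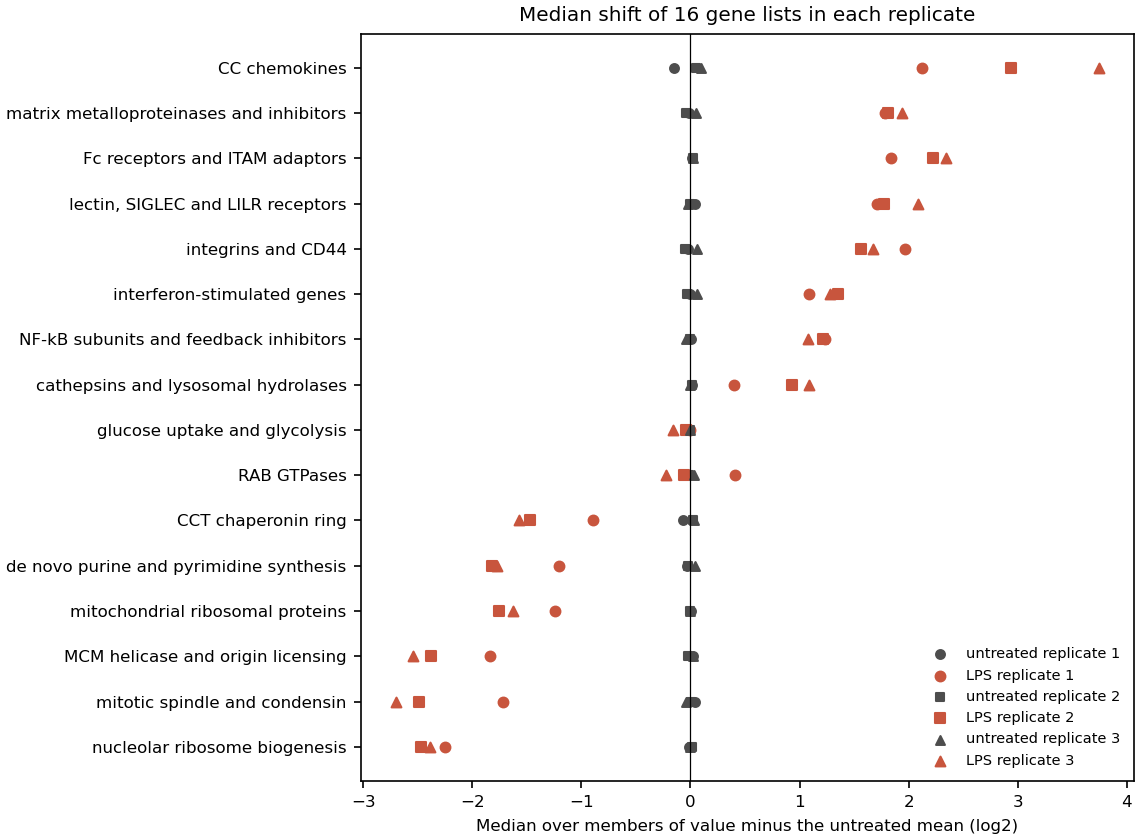
Median over the members of 16 gene lists of each replicate's log2 value minus the untreated mean (x axis), for 3 untreated replicates (grey) and 3 LPS replicates (red), with the shape giving the replicate number. Of the LPS replicates, replicate 1 (red circles) lies nearest to 0 in the mitotic list at -1.72 and in CC chemokines at 2.13. The untreated medians are held close to 0 because they are set against the mean of the same replicates.

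The 8 called genes with the largest SD between LPS replicates included TIMM9, S100A8, RCC1 and PARPBP. KIF18A, a kinesin of the spindle, read 6.50, 5.90 and 6.01 untreated and 4.58, 1.81 and 0.46 with LPS (-3.85 ± 0.91), with 3 of 9 LPS arrays above noise. ORC6, an origin recognition subunit, read 8.44, 8.44 and 8.30 and 6.91, 6.04 and 2.41 (-3.28 ± 0.99, adjusted p = 0.0455), and MAP3K1, a kinase upstream of JNK, 6.52, 6.80 and 6.53 and 1.399, 4.59 and 4.91 (-2.98 ± 0.79, adjusted p = 0.0279). AFF2, a nuclear RNA-binding protein, read 6.72, 6.92 and 6.64 and 4.83, 3.77 and 1.19 (-3.50 ± 0.83), with 4 of 9. The calls of these 4 genes did not hold throughout. Without untreated replicate 2 the adjusted p was 0.11 for ORC6, 0.0807 for MAP3K1 and 0.0544 for AFF2. Without untreated replicate 1 it was 0.107 for ORC6, 0.0693 for MAP3K1 and 0.0569 for KIF18A, and without untreated replicate 3 it was 0.1 for ORC6 and 0.0689 for MAP3K1. Without LPS replicate 2 it was 0.0594 for ORC6 and 0.058 for KIF18A. On the values as deposited ORC6 had an adjusted p of 0.0548, and the median of the technical arrays gave 0.0681 for MAP3K1.

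Where a gene had several probes the others often fell short of a call. Of 702 called genes with more than 1 probe, 274 had all probes called the same way, 412 had at least 1 probe not called and 16 had probes called in opposite directions. Of called genes, 69 that rose were not above noise on any untreated array and 69 that fell were not above noise on any LPS array, and for these the fitted difference is no measure of the fold.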

How the data were processed

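Gene expression was measured on one-colour human oligonucleotide arrays labelled with Cy5. The deposited values are linear intensities from which the authors had already subtracted background, in a table without a scaling between arrays. Values below 1 were set to 1, taken to log2, quantile normalised over all 27 arrays and averaged over the 3 technical arrays of a replicate. Group means were fitted over 9 replicates with limma 3.58.1 in R 4.3.3, and p-values were adjusted by Benjamini-Hochberg over 30968 probes with a threshold of 0.05. A noise limit of 3 times the root mean square of the negative values was set for each array, and a value at 99% or more of an array's maximum was taken as near the scanner's limit. For a bound ("at least"), a dim probe counted at the higher of its own value and the array's lowest signal above noise, and a value near the scanner's limit counted as it stands.

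Named genes were taken from the 15 largest rises and falls that did not overlap and held under 3 scalings, and from 68 lists. In each list the first 4 and the 4 members of smallest p could be named. Members of short lists and of cell type markers, the 8 genes of largest SD between LPS replicates and steady genes could be named too. Not every gene that these rules allow is named, and most of those named were called. The 6 brightest steady genes were near the scanner's limit, and HADHA came from the 6 brightest away from it. CCL24, CDT1, UTP4, PRG2 and DEFA4 lie outside these rules and were chosen after their values were seen. One further list is not reported here. The members and lists were chosen with earlier results of these data known. Of the 17397 named probes 82 symbols had no match in RefSeq and kept the array's name, and 13571 probes carried no name. Promoters came from RefSeq (GRCh38.p14) for 12207 genes. The fit was tested on simulated data. Alternatives covered scaling, pseudocount, dim probes, weights, blocks and each replicate left out. The median of technical arrays was added after seeing the data.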

Additional observations from a re-analysis of the deposited data

Results flagged for a closer look

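Probes without a gene name carried a response that the comparison of named genes does not use. Of 13571 such probes 1053 were called higher with LPS (7.76%) and 946 lower (6.97%) by limma at an adjusted p under 0.05, beside 12.9% and 15.6% of the 17397 named probes. The difference in share between named and unnamed probes was not tested.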

How the results depend on the processing

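On the values as deposited 5935 probes and 3312 genes were higher and 2205 probes and 1435 genes lower. With array weights 5458 probes and 3131 genes were higher and 5552 probes lower, and against a 2-fold threshold (limma's treat) 668 probes and 475 genes were higher and 693 probes and 472 genes lower. Leaving out 1 replicate gave 2256 to 3410 probes higher, 2415 to 4160 probes lower, 1475 to 2175 genes higher and 1580 to 2687 genes lower, the lowest without untreated replicate 2 and the highest without LPS replicate 1. The 227 called genes named here had a direction that no alternative reversed. Among genes not called, TLR4 was -0.052 on median-centred values and ran from -0.046 (without untreated replicate 3) to 0.178 with 1 replicate left out, SPI1 from -0.271 to 0.032 and IL6 from -0.191 to 0.896. On the values as deposited NFKB1 was 0.21, SPI1 0.225, MPO 0.136 and E2F1 0.102. The cause of these changes was not tested. The sign of 60 of 68 list medians held under every alternative. With a pseudocount of 16 the medians were 0.61 for NF-kB genes, 0.60 for cytokines and 0.68 for interferon-stimulated genes.

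With a replicate block 1630 genes and 2508 probes were higher and 1844 genes and 2897 probes lower. Same-numbered replicates share only a number: their deviations from the group means correlated at -0.0012, 0.002 and 0.0077. Signals at the noise limit or near the scanner's limit bound what a fold can show.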

Other observations

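The share of promoters with an element depended on how close to the start the search stayed. With only the 100 bases before the start, the interferon-stimulated response element was in 47.6% of the promoters of interferon-stimulated genes and 0.893% of all promoters, and the CHR was in 42.1% of those of the mitotic list and 3.02% of all. The E2F site was in 21.1% of the MCM and licensing list and 1.12% of all, and the E-box was in 9.09% of the nucleolar list and 4.38% of all. The CCAAT box, searched as CCAAT, was in 63.2% of the mitotic promoters and 68.4% of the MCM and licensing promoters in the longer window, beside 36.3% of all.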
